A study of Mus musculus with 18 samples.

Results

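The genes described here belong to the unfolded protein response and to the ATF4 stress response, 2 linked programmes by which a cell answers trouble in the endoplasmic reticulum (ER) or a shortage of amino acids. They were chosen by name, as 44 gene symbols of these pathways, and not by any measured value. Of these, 42 had a probe set annotated to that gene alone, out of 22180 genes so measured, and the probe set with the highest mean was used for each. The ATF4 arm holds 22 of the 42: transcription factors, stress effectors, the enzymes of serine and one-carbon synthesis, and other enzymes of amino acid metabolism. The ER arm holds 16, namely chaperones, disulfide and other folding factors, and factors of ER-associated degradation. The remaining 4 are the sensors Atf6, Ern1 and Eif2ak3 with Xbp1, the factor that acts downstream of Ern1. For short, all 4 are called the sensors below, although Xbp1 is not a sensor itself. The 2 names without such a probe set are Pycr1 and Pdia4, for which no value is given.

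Unfolded protein in the ER is sensed by ATF6, by IRE1 (encoded by Ern1), which splices Xbp1 mRNA, and by PERK (encoded by Eif2ak3). PERK phosphorylates eIF2, which lowers translation in general while favouring that of ATF4, and the kinase GCN2 does the same when amino acids run short. ATF4 then induces amino acid synthesis and uptake, while ATF6 and spliced XBP1 induce chaperones and degradation factors.

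The study measured RNA from mouse cells on 1-colour whole-transcript arrays after 24 h in culture. The leukaemia cells, called AML, were GFP+ cells driven by the MLL-AF9 fusion and sorted from leukaemic mice. The normal cells, called LSK, were the Lin- ckit+ sca1+ stem and progenitor fraction of 4F transgenic mice, in which Dox switches on the reprogramming factors Oct4, Sox2, Klf4 and c-Myc. Both cell types carry that transgene per the labels, controls included. The 6 groups are AML Control, AML Dox, AML Compound, LSK Control, LSK Dox and LSK Compound, each of 3 arrays, where Compound means the mix of VPA, CHIR, 616452 and TCP. Titles call the arrays biological repeats. The labels do not give strain, age, the number of mice, or a promoter for the transgene or its activator, and they do not say whether the Compound cells also received Dox. All values are log2 expression, so a difference of 1 is a doubling.

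One array stood apart and was left out. LSK Compound replicate 1 correlated at 0.638 to 0.672 with the other arrays over all probe sets, whereas the other 17 correlated at 0.9043 or more with each other. The remaining LSK Compound group has 2 arrays. On both of them the Y-linked genes Eif2s3y, Kdm5d and Uty lay between 4.30 and 5.47, against at most 2.67 on every other array of the 17, and Xist lay at 7.32 and 7.35, against 9.28 to 9.77 in the other LSK arrays. The treatment cannot be told apart from this difference in sex-linked transcripts in any LSK Compound result. At low values, the same 3 Y-linked genes also lay higher in AML Compound than in AML Control, without overlap. Eif2s3y lay at 2.34 to 2.64 against 1.95 to 2.13, Kdm5d at 2.46 to 2.67 against 2.11 to 2.27, and Uty at 2.21 to 2.53 against 1.84 to 2.0. The cause was not tested. Xist also differed between the cell types, at 2.34 to 3.01 on the AML arrays. Cell type cannot be told apart from this Xist difference in any comparison of AML with LSK cells, differences between their responses included. Klf4 rose from a mean of 3.27 to 9.14 with Dox in AML cells and from 3.83 to 8.21 in LSK cells, and stood at 3.44 in AML Compound and 4.90 in LSK Compound. The other factors did not show such a gain. Pou5f1, which encodes Oct4, averaged 2.91 in AML Control and 3.58 in AML Dox, and 2.98 and 3.13 in LSK cells. Sox2 averaged 2.72 and 4.03 in AML and 2.51 and 2.80 in LSK cells. Myc averaged lower with Dox, at 8.67 and 4.57 in AML and 9.34 and 8.73 in LSK cells. Hoxa9, a target of the MLL-AF9 fusion, averaged 7.82 in AML Control and 5.59 in LSK Control, while Kit, a defining marker of LSK cells, averaged 6.22 and 7.71 and Cd34, also a progenitor marker, 8.67 and 10.1. Ly6a, which encodes Sca-1, was not measured by a probe set of its own. Differences were tested with limma over the 17 arrays and 16337 genes, with Benjamini-Hochberg adjustment over all of them and a threshold of 0.05, and all 42 genes entered the test. "Rose" and "fell" are used only of genes past that threshold. In the treatment comparisons, genes shown array by array were picked among those called without overlap, apart from Atf4 and the sensors. Separate groups in the picked genes therefore follow from the choice.

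**Figure D1:**
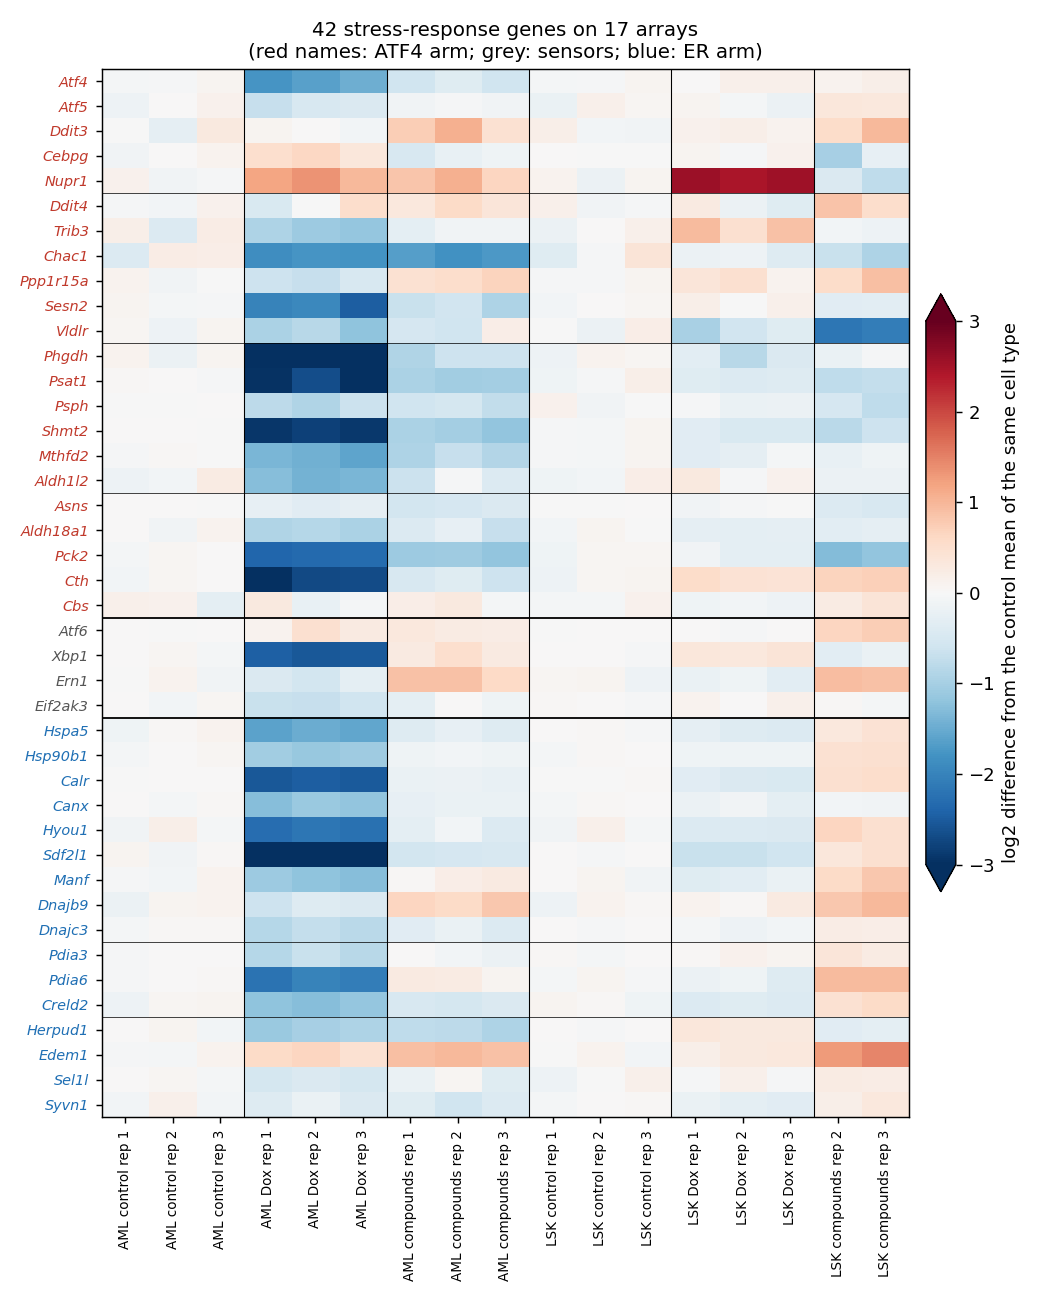
Log2 difference of each of the 42 genes (rows) from the control mean of the same cell type on each of the 17 arrays (columns). Colour runs from blue (lower) to red (higher), horizontal lines divide the roles, and thicker lines divide the ATF4 arm, the sensors and the ER arm. The AML Dox columns are blue in 35 of 42 rows by the test, and the LSK Compound columns are red in 11 of 16 ER arm rows.

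Without treatment, leukaemia cells carried more RNA of both arms than normal LSK cells. In AML Control against LSK Control, 28 of the 42 genes were higher and 3 lower, where 15.4% of all genes tested were higher and 14.2% lower (29.6% called in all). The ATF4 arm had 14 higher and 1 lower of 22 with a median difference of 0.52, and the ER arm 12 higher and 1 lower of 16 with a median of 0.46, beside a median over all genes tested of 0.00. In bulk RNA, fewer cells of a type and less RNA per cell cannot be told apart, here and in every comparison below. Markers of other cell types also differed between the controls. The log2 summed level of 9 granulocyte markers was 5.70 to 5.80 in AML Control and 9.70 to 9.86 in LSK Control, with 6 of 7 tested lower in AML and 0 higher, Ly6g and Retnlg at the filter level in both groups and Ltf, Camp and S100a9 in AML Control. That of 9 macrophage markers was 8.26 to 8.30 and 9.23 to 9.33, with 5 of 9 lower and 1 higher. Their part in the differences was not tested.

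Cth, the cystathionine gamma-lyase that makes cysteine, stood furthest apart. It read 6.38, 6.52 and 6.46 in AML Control and 2.93, 3.15 and 3.18 in LSK Control, a log2 difference of 3.36 (SE 0.11, adjusted p = 4.49e-13) or 10.3-fold. The 3 leukaemia arrays lay far above the 3 normal ones. In LSK Control Cth was dim, not far above the filter level of 2.317 to 2.409 on the arrays. Among the stress effectors Chac1, which breaks down glutathione, was higher in AML by 1.40 (SE 0.17, adjusted p = 7.13e-06) and Sesn2, a stress-induced brake on mTORC1, by 1.10 (SE 0.13, adjusted p = 3.46e-06). Of the 6 genes of serine and one-carbon synthesis 5 were higher, from 0.39 for Psph to 1.17 for Aldh1l2. Aldh1l2, a mitochondrial folate enzyme, was dim in LSK cells, where it read 2.43, 2.49 and 2.76 against a filter level of 2.317 to 2.409 on the arrays. Phgdh, the entry enzyme of serine synthesis, differed by only 0.10 (SE 0.15, adjusted p = 0.693) and was not called. Atf4 itself was higher in AML by 0.39 (SE 0.10, adjusted p = 0.00513).

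In the ER arm Sdf2l1, an ER chaperone cofactor, had the largest difference, 1.34 (SE 0.08, adjusted p = 1.03e-09), followed by Sel1l, the scaffold of the HRD1 degradation complex, at 1.11 (SE 0.11, adjusted p = 3.44e-07). The 3 genes lower in AML were Vldlr, a lipoprotein receptor induced by PERK and ATF4, at -1.19 (SE 0.19, adjusted p = 9.87e-05), the sensor Ern1 at -0.68 (SE 0.10, adjusted p = 7.54e-05), and Dnajb9, an ER co-chaperone that represses IRE1, at -0.56 (SE 0.11, adjusted p = 0.0009). Xbp1 went the other way from Ern1 and was higher in AML by 0.63 (SE 0.08, adjusted p = 1.29e-05).

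**Figure D2:**
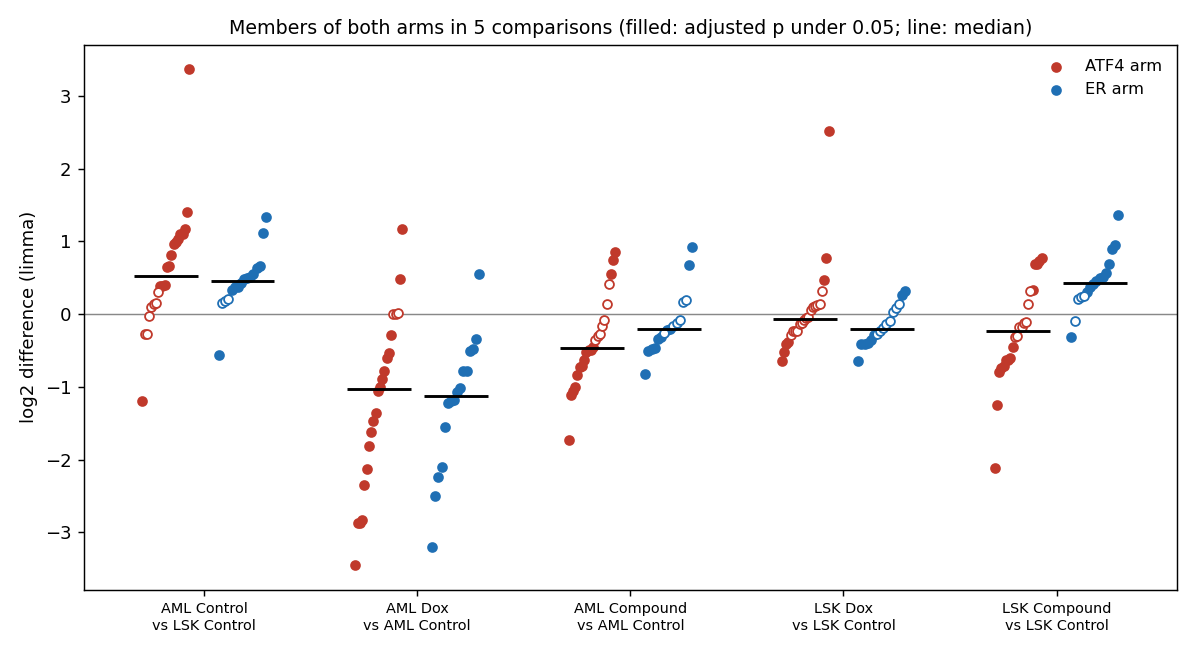
Log2 difference (y axis, from limma) of every gene of the ATF4 arm (red) and the ER arm (blue) in 5 comparisons (x axis), with filled points for adjusted p under 0.05 and a black line at each median. Both medians are below -1 in AML Dox, while in LSK Compound the ATF4 arm median is -0.24 and the ER arm median 0.43.

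Dox in AML cells was followed by lower RNA of nearly the whole set. In AML Dox against AML Control 35 of the 42 genes fell and 4 rose, where 25.6% of all genes tested fell and 23% rose (48.6% called in all). The ATF4 arm had 17 lower and 2 higher of 22 with a median of -1.03, and the ER arm 15 lower and 1 higher of 16 with a median of -1.13, beside a median of -0.01 over all genes tested. In each of the 39 called genes the 3 Dox arrays lay wholly above or wholly below the 3 control arrays, a separation that 29.4% of all genes tested showed downwards and 26.3% upwards. Markers also moved with Dox in these cells. Kit averaged 6.22 in AML Control and 3.44 in AML Dox, and Cd34 8.67 and 3.44. Of 9 tested stem and progenitor markers, Kit and Cd34 among them, 4 rose and 4 fell, with a median of 0.02. Of 8 MLL-AF9 leukaemia markers 7 rose and 0 fell, with Hoxa9 at 7.82 and 9.15. Myc, itself a reprogramming factor, averaged 8.67 and 4.57. The log2 summed level of 9 macrophage markers was 8.26 to 8.30 and 9.31 to 9.45, with 2 of 9 higher and 2 lower. Mrc1 was at the filter level in both groups and C1qc with Dox. Their part in the changes below was not tested.

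The sensors and Atf4 are given first. Atf4 read 8.62, 8.64 and 8.75 in AML Control and 6.91, 7.05 and 7.20 in AML Dox, and fell by 1.62 (SE 0.10, adjusted p = 1.69e-10). For Xbp1 the values were 9.32, 9.36 and 9.26 without and 6.87, 6.77 and 6.78 with Dox, and it fell by 2.51 (SE 0.08, adjusted p = 8.82e-14). These are 3.08-fold and 5.68-fold lower levels, and no Dox array reached a control array. The other sensors moved less. Ern1 read 6.46, 6.59 and 6.38 and then 6.04, 5.94 and 6.19, and fell by 0.42 (SE 0.10, adjusted p = 0.00242). Eif2ak3 read 4.87, 4.77 and 4.90 and then 4.18, 4.16 and 4.26, and fell by 0.65 (SE 0.09, adjusted p = 4.55e-06). Atf6 was the only one of the 4 to rise, from 6.70, 6.68 and 6.71 to 6.81, 7.17 and 6.97, by 0.29 (SE 0.09, adjusted p = 0.0103). That rise was lost without AML Dox replicate 2, where it was 0.19 with an adjusted p of 0.0747.

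The serine and one-carbon enzymes fell most, 6 of 6 with a median of -2.17. Phgdh read 6.86, 6.58 and 6.84 in AML Control and 3.50, 3.43 and 3.01 in AML Dox, and fell by 3.45 (SE 0.15, adjusted p = 3.22e-12), to a level 10.9-fold lower. Psat1, the second enzyme of the pathway, read 7.77, 7.73 and 7.70 and then 4.77, 5.08 and 4.73, and fell by 2.87 (SE 0.10, adjusted p = 1.75e-13). Shmt2, which splits serine to charge mitochondrial folate, went from 9.63, 9.64 and 9.60 to 6.70, 6.81 and 6.72 and fell by 2.88 (SE 0.09, adjusted p = 3.98e-14). In all of these the groups were separated by more than 2 log2 units. Mthfd2 and Aldh1l2, which act on mitochondrial folate, fell by 1.47 (SE 0.10, adjusted p = 5.37e-10) and by 1.36 (SE 0.14, adjusted p = 3.28e-07). Aldh1l2 ended at 2.44, 2.31 and 2.35, at the filter level of the arrays, so its change has a floor. Psph, the last enzyme of serine synthesis, fell least of the 6, by 0.78 (SE 0.10, adjusted p = 2.68e-06).

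A further pair of enzymes completed the 5 largest falls of the arm. Cth read 6.38, 6.52 and 6.46 in AML Control and 3.36, 3.73 and 3.76 in AML Dox, and fell by 2.83 (SE 0.11, adjusted p = 8.05e-13). Pck2, the mitochondrial PEP carboxykinase, read 7.53, 7.64 and 7.61 and then 5.21, 5.25 and 5.29, and fell by 2.34 (SE 0.09, adjusted p = 3.29e-13). Even with Dox, Cth in AML cells lay above its LSK Control values of 2.93, 3.15 and 3.18. Aldh18a1, which starts proline synthesis, fell by 0.90 (SE 0.10, adjusted p = 6.49e-07). Asns, the asparagine synthetase and a textbook ATF4 target, fell only by 0.29 (SE 0.07, adjusted p = 0.00274), and Cbs, which acts just before Cth, showed 0.00 (SE 0.14, adjusted p = 0.997). Cbs was dim, at 2.49 to 2.95 in AML Control and 2.57 to 3.08 in AML Dox against a filter level of 2.317 to 2.409. A fall of Cbs could therefore hardly show.

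Among the stress effectors 5 of 6 fell: Sesn2 (-2.13), Chac1 (-1.82), Trib3 (-1.05), a pseudokinase that feeds back on ATF4, Vldlr (-1.0), and Ppp1r15a (-0.60), the GADD34 subunit that directs dephosphorylation of eIF2. Ddit4, an inhibitor of mTORC1, differed by 0.01 (SE 0.20, adjusted p = 0.972) and the pro-apoptotic factor Ddit3 (CHOP) by 0.00 (SE 0.16, adjusted p = 0.994), neither of them called. Both rises in the arm were of transcription factors. Nupr1, a stress-induced chromatin protein, read 5.37, 5.15 and 5.22 in AML Control and 6.42, 6.58 and 6.22 in AML Dox and rose by 1.17 (SE 0.13, adjusted p = 5.34e-07). Cebpg, a dimer partner of ATF4, read 5.79, 5.93 and 6.01 and then 6.41, 6.52 and 6.26 and rose by 0.49 (SE 0.15, adjusted p = 0.011). Without AML Dox replicate 2 the Cebpg value was 0.43 with an adjusted p of 0.0501.

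The ER chaperones fell together, 9 of 9 with a median of -1.19. Sdf2l1 read 8.40, 8.21 and 8.36 in AML Control and 5.21, 5.13 and 5.02 in AML Dox, and fell by 3.20 (SE 0.08, adjusted p = 6.37e-15). Calr, the lectin chaperone calreticulin, read 11.16, 11.19 and 11.19 and then 8.65, 8.72 and 8.67, and fell by 2.50 (SE 0.07, adjusted p = 1.97e-14). Hyou1, an ER member of the HSP70 family, went from 8.34, 8.63 and 8.40 to 6.17, 6.29 and 6.21 and fell by 2.23 (SE 0.11, adjusted p = 8.47e-12). Control and Dox arrays did not come near one another in these 3 genes. Hspa5, which encodes BiP, the main ER chaperone and the brake on all 3 sensors, read 7.90, 8.05 and 8.12 and then 6.42, 6.53 and 6.46, and fell by 1.55 (SE 0.08, adjusted p = 4.64e-11). Pdia6, a disulfide isomerase, read 9.63, 9.67 and 9.70 and then 7.46, 7.67 and 7.59, and fell by 2.10 (SE 0.09, adjusted p = 3.61e-12). The remaining falls ran from -0.34 for Syvn1, the ubiquitin ligase of ER-associated degradation, to -1.22 for Creld2, an ER-stress-induced folding factor. Edem1, which hands misfolded glycoproteins to degradation, was the exception: it read 7.84, 7.82 and 7.98 and then 8.45, 8.52 and 8.33, and rose by 0.55 (SE 0.09, adjusted p = 3.51e-05).

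**Figure D3:**
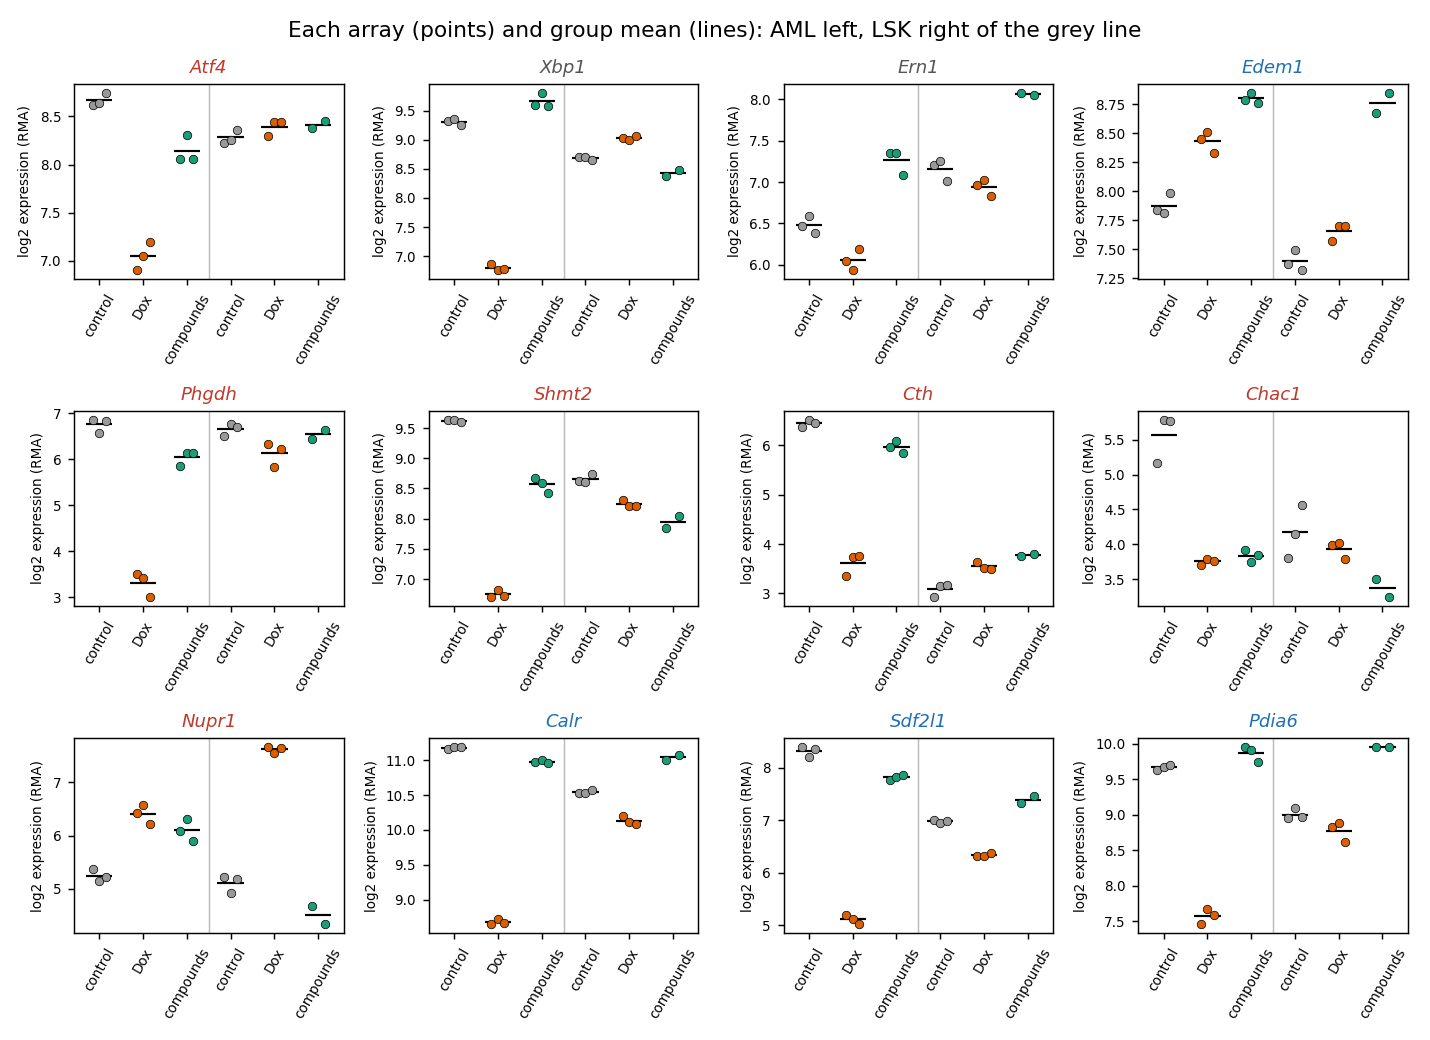
Log2 expression on every array (points, y axis) with group means (black lines) for 12 of the genes, AML groups left and LSK groups right of the grey line in each panel (x axis: control in grey, Dox in orange, compounds in green). Each panel has its own y range, which does not start at 0. Xbp1, Phgdh, Shmt2, Calr, Sdf2l1 and Pdia6 are lowest on the AML Dox arrays, and Nupr1 is highest on the LSK Dox arrays.

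Promoters were read to show which of these genes carry the DNA element known to bind ATF6 and XBP1. RefSeq promoters of the mouse build GRCm38.p6, from 250 bases before to 50 after each start site, were at hand for 39 of the 44 names. The ER stress response element, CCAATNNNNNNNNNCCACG on either strand, was present in 8 of 15 ER arm promoters, in 0 of 21 ATF4 arm promoters and in 0 of 3 sensor promoters, against 0.137% of the promoters of 27025 genes. The 8 are shown because they include the main chaperones that moved in AML Dox. They are written in the orientation of the element, with 8 bases on each side and with the CCAAT and CCACG boxes in capitals.
Hspa5: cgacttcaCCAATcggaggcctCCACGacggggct
Hsp90b1: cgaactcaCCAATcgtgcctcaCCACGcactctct
Calr: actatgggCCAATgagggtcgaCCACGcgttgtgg
Canx: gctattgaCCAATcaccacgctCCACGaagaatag
Dnajc3: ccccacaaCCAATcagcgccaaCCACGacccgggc
Pdia6: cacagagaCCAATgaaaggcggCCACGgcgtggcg
Creld2: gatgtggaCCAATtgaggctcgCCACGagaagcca
Syvn1: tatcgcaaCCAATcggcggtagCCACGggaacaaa

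These windows lie at chr2:34772017-34772051 for Hspa5, chr10:86705525-86705559 for Hsp90b1, chr8:84847067-84847101 for Calr and chr11:50325792-50325826 for Canx. The others lie at chr14:118937819-118937853 for Dnajc3, chr12:17266483-17266517 for Pdia6, chr15:88819512-88819546 for Creld2 and chr19:6046524-6046558 for Syvn1. All 8 are upstream of the start site, outside the transcribed gene, with between 25 (Syvn1) and 143 (Calr) bases in between, and the elements of Hsp90b1, Calr and Creld2 are on the strand opposite to the gene. Hsp90b1, which encodes the chaperone GRP94, held a further copy at chr10:86705630-86705664. Of the 8 genes, 8 fell in AML Dox with a median of -1.20. Of the 11 other tested genes with the element, 2 fell and 2 rose with a median of -0.11, where 25.6% of all genes tested fell and 23% rose. Falls in the ER arm were not limited to genes with the element: 15 of its 16 genes fell. Sdf2l1, with the largest fall of the arm, had a promoter entry without this element, and Hyou1 and Manf had no promoter entry. Any part of the element in the falls was not tested.

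Herpud1, a degradation factor of the ER membrane, had the variant element ERSE-II, ATTGGNCCACG, at chr8:94386369-94386395, 41 bases before the start. Such an element was found in 0.0444% of the promoters. The short core of the amino acid response element to which ATF4 binds, TGATGNAA, was found in 7 of 21 ATF4 arm promoters and in that of Herpud1, against 4.51% of all genes. The core in Herpud1 also lies upstream of the start and is not printed. The 5 shown here belong to ATF4 arm genes whose values are described in this text and lie upstream of the start, again with the element in capitals.
Herpud1 ERSE-II: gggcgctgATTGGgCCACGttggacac
Asns: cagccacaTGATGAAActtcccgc
Chac1: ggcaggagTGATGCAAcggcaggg
Nupr1: gccctgtcTGATGCAAtctggccc
Pck2: taagatacTGATGTAActttgaag
Vldlr: aggagcgcTGATGCAActattgct

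The last 5 windows lie at chr6:7693217-7693240 for Asns, chr2:119351041-119351064 for Chac1, chr7:126625565-126625588 for Nupr1, chr14:55540155-55540178 for Pck2 and chr19:27216812-27216835 for Vldlr. No 2 of the printed matches overlap. The set has 8 genes with this core, of which 7 were tested. In AML Dox 6 of these fell and Nupr1 rose, while of 379 other tested genes with it 88 fell and 91 rose. Of all genes tested 25.6% fell and 23% rose there.

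The compound mix in AML cells was followed by changes in 28 of these genes, in both directions. In AML Compound against AML Control 20 of the 42 genes fell and 8 rose, where 19.2% of all genes tested fell and 12.8% rose (32% called in all). The ATF4 arm had 12 lower and 3 higher of 22 with a median of -0.47, the ER arm 8 lower and 2 higher of 16 with a median of -0.21, and 3 of the 4 sensors rose. The median over all genes tested was -0.03. Groups that do not overlap were seen in 22 of the 42 genes downwards and 10 upwards, where 4015 and 2791 of 16337 genes tested showed them. These arrays are compared with the same 3 control arrays as AML Dox. Macrophage markers moved with this treatment: the log2 summed level of 9 of them was 8.26 to 8.30 on the AML Control arrays and 11.10 to 11.32 on the AML Compound arrays, with 8 of 9 higher by the test and Mrc1 at the filter level in the controls. The granulocyte markers had a summed level of 5.70 to 5.80 and 8.75 to 9.13, with 2 of 7 tested higher and 1 lower, and with Ly6g, Ltf, Camp, S100a9 and Retnlg at the filter level in both groups. Of 9 tested stem and progenitor markers 5 rose and 1 fell, with a median of 0.37. Kit averaged 6.22 and 7.76, and Cd34 8.67 and 9.04. Of 8 MLL-AF9 leukaemia markers 3 rose and 4 fell, with a median of -0.17. Their part in the changes below was not tested.

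Atf4 read 8.62, 8.64 and 8.75 in AML Control and 8.06, 8.31 and 8.06 in AML Compound, and fell by 0.53 (SE 0.10, adjusted p = 0.000411). The sensors did not follow it. Ern1 read 7.35, 7.35 and 7.08 with the compounds and rose by 0.78 (SE 0.10, adjusted p = 1.85e-05), and Xbp1 read 9.59, 9.81 and 9.58 and rose by 0.35 (SE 0.08, adjusted p = 0.00312). Atf6 read 7.0, 6.94 and 6.93 and rose by 0.26 (SE 0.09, adjusted p = 0.0282), a call lost in 4 of 17 fits that each left out 1 array. Eif2ak3 read 4.87, 4.77 and 4.90 in AML Control and 4.57, 4.85 and 4.71 in AML Compound, overlapping groups, with a difference of -0.14 (SE 0.09, adjusted p = 0.255).

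The largest fall was of Chac1, which read 5.16, 5.78 and 5.77 in AML Control and 3.92, 3.75 and 3.85 in AML Compound and fell by 1.73 (SE 0.17, adjusted p = 7.69e-07). Pck2 read 6.50, 6.54 and 6.41 with the compounds and fell by 1.11 (SE 0.09, adjusted p = 3.06e-08). Shmt2 read 8.68, 8.60 and 8.43 and fell by 1.05 (SE 0.09, adjusted p = 6.71e-08). All compound arrays of these genes lay below all controls, and for Chac1 they lay at the level reached with Dox, 3.70, 3.80 and 3.77. Psat1 read 6.78, 6.69 and 6.71 and fell by 1.01 (SE 0.10, adjusted p = 6.51e-07), and Mthfd2 read 7.20, 7.43 and 7.24 against 8.09, 8.17 and 8.11 and fell by 0.83 (SE 0.10, adjusted p = 3.5e-06). Of the 6 serine and one-carbon enzymes 5 fell, with a median of -0.77, Phgdh by 0.72, and only Aldh1l2 was not called, at -0.36 (SE 0.14, adjusted p = 0.0683).

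At the same time 3 stress genes of the ATF4 arm rose. Nupr1 read 6.09, 6.32 and 5.89 and rose by 0.85 (SE 0.13, adjusted p = 6.49e-05). Ddit3 read 3.84, 3.57 and 4.13 in AML Control and 4.58, 4.91 and 4.31 in AML Compound and rose by 0.75 (SE 0.16, adjusted p = 0.00119). Ppp1r15a read 4.0, 3.78 and 3.89 and then 4.35, 4.42 and 4.55 and rose by 0.55 (SE 0.12, adjusted p = 0.00127). The compound arrays lay above the control arrays in all 3.

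Within the ER arm the falls ran from -0.20 to -0.83. Herpud1 read 8.20, 8.28 and 8.10 in AML Control and 7.44, 7.40 and 7.26 in AML Compound and fell by 0.83 (SE 0.08, adjusted p = 7.69e-07). Sdf2l1 read 7.77, 7.82 and 7.85 and fell by 0.51 (SE 0.08, adjusted p = 0.000114), and Creld2 read 7.54, 7.75 and 7.77 and then 7.20, 7.17 and 7.25 and fell by 0.48 (SE 0.09, adjusted p = 0.000323). These 3 genes showed no overlap between the groups, as their choice required. Syvn1 went from 5.61, 5.83 and 5.60 to 5.31, 5.08 and 5.27 and fell by 0.46 (SE 0.10, adjusted p = 0.00142), and Hspa5 read 7.65, 7.77 and 7.64 and fell by 0.34 (SE 0.08, adjusted p = 0.00448). The falls of Calr, -0.20, and of Canx, the membrane-bound relative of calreticulin, -0.22, were lost in 6 and in 13 of 17 fits that each left out 1 array. Edem1 and Dnajb9 rose. Edem1 read 8.79, 8.85 and 8.76 with the compounds and rose by 0.92 (SE 0.09, adjusted p = 4.07e-07), and Dnajb9 read 6.01, 6.27 and 6.31 and then 6.84, 6.77 and 7.0 and rose by 0.67 (SE 0.11, adjusted p = 0.00015). Of the 8 genes with the ER stress response element printed above 6 fell and 0 rose, with a median of -0.27. Among the 11 other tested genes with it 2 fell and 0 rose, with a median of -0.02. The shares of all genes tested were 19.2% and 12.8%.

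Set against each other in AML cells, Dox left lower levels than the compounds in 32 of the 42 genes and higher levels in 2, where 24.7% of all genes tested were lower and 23% higher (47.7% called in all). The ER arm had 14 lower of 16 and the ATF4 arm 15 lower and 2 higher of 22. The widest gap was in Xbp1, which fell with Dox and rose with the compounds, -2.85 (SE 0.08, adjusted p = 2.22e-14), and Phgdh and Sdf2l1 followed at -2.73 (SE 0.15, adjusted p = 7.57e-11) and -2.69 (SE 0.08, adjusted p = 4.4e-14). Cebpg, at 0.76 (SE 0.15, adjusted p = 0.000321), and Asns, at 0.21 (SE 0.07, adjusted p = 0.0215), were the 2 that were higher with Dox. The Asns call was lost without AML Compound replicate 1, AML Dox replicate 1 or AML Dox replicate 3, with values of 0.19 to 0.21.

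In normal LSK cells 16 of these genes changed with Dox. In LSK Dox against LSK Control 10 of the 42 fell and 6 rose, where 9.93% of all genes tested fell and 9.21% rose (19.1% called in all). The ATF4 arm had 4 lower and 3 higher of 22 with a median of -0.07, and the ER arm 6 lower and 2 higher of 16 with a median of -0.21, beside a median of -0.05 over all genes tested. Groups that do not overlap were seen in 18 genes downwards and 8 upwards, where 21.5% and 14.6% of all genes tested showed them. Markers moved with Dox here as well. The log2 summed level of the granulocyte markers was 9.70 to 9.86 in LSK Control and 9.15 to 9.31 in LSK Dox, with 4 of 7 tested lower, 0 higher, and Ly6g and Retnlg at the filter level in both. Of 9 tested stem and progenitor markers 5 rose and 2 fell, with a log2 summed level of 10.89 to 10.96 and then 10.87 to 10.91, and Kit averaged 7.71 and 6.95. The summed macrophage level was 9.23 to 9.33 in LSK Control and 9.42 to 9.60 in LSK Dox, with 2 of 9 higher and 2 lower. Their part was not tested.

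Atf4 read 8.23, 8.26 and 8.36 in LSK Control and 8.29, 8.44 and 8.44 in LSK Dox, with overlapping groups and a difference of 0.11 (SE 0.10, adjusted p = 0.507). Xbp1 read 8.70, 8.71 and 8.65 and then 9.03, 9.0 and 9.07 and rose by 0.35 (SE 0.08, adjusted p = 0.00586), with every Dox array above every control. The other sensors were not called: Ern1 went from 7.21, 7.25 and 7.01 to 6.96, 7.02 and 6.83, a difference of -0.22 (SE 0.10, adjusted p = 0.172). Eif2ak3 went from 4.52, 4.51 and 4.45 to 4.59, 4.50 and 4.64, a difference of 0.09 (SE 0.09, adjusted p = 0.563), and Atf6 from 6.87, 6.91 and 6.90 to 6.90, 6.85 and 6.90, a difference of -0.01 (SE 0.09, adjusted p = 0.965).

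Nupr1 gave the largest change of the set in LSK cells under Dox. It read 5.21, 4.92 and 5.17 in LSK Control and 7.67, 7.56 and 7.64 in LSK Dox, a level 5.75-fold higher, and rose by 2.52 (SE 0.13, adjusted p = 2.71e-10). Trib3 read 4.45, 4.63 and 4.77 and then 5.57, 5.10 and 5.49 and rose by 0.77 (SE 0.16, adjusted p = 0.00181), and Cth read 3.64, 3.52 and 3.50 with Dox and rose by 0.47 (SE 0.11, adjusted p = 0.00621). All 3 had their Dox arrays above their controls, though Cth stayed far below its AML Control level.

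The falls in the ATF4 arm were of Vldlr and of serine pathway genes. Vldlr read 5.0, 4.84 and 5.21 in LSK Control and 4.04, 4.44 and 4.64 in LSK Dox and fell by 0.64 (SE 0.19, adjusted p = 0.0232). Phgdh read 6.50, 6.77 and 6.71 and then 6.34, 5.83 and 6.23 and fell by 0.53 (SE 0.15, adjusted p = 0.0205). Shmt2 read 8.63, 8.60 and 8.73 and then 8.31, 8.20 and 8.20 and fell by 0.41 (SE 0.09, adjusted p = 0.0024). Psat1 fell by 0.38 (SE 0.10, adjusted p = 0.0114), from 6.61, 6.70 and 6.93 to 6.39, 6.34 and 6.36. The groups did not overlap in any of the 4, which was a condition of being shown by array. The call of Phgdh was lost without LSK Control replicate 2 or 3 or LSK Dox replicate 2, with values of -0.50 to -0.37, and that of Vldlr without LSK Control replicate 1 or 3 or LSK Dox replicate 1, with values of -0.65 to -0.47. Psat1 lost its call without LSK Control replicate 3, at -0.29.

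In the ER arm Sdf2l1 again led the falls. It read 7.01, 6.95 and 6.99 in LSK Control and 6.32, 6.31 and 6.38 in LSK Dox and fell by 0.65 (SE 0.08, adjusted p = 1.76e-05). Calr read 10.53, 10.53 and 10.57 and then 10.19, 10.11 and 10.08 and fell by 0.41 (SE 0.07, adjusted p = 0.000448), and Hyou1 read 7.81, 8.07 and 7.85 and then 7.51, 7.51 and 7.48 and fell by 0.41 (SE 0.11, adjusted p = 0.011). The Hyou1 call was lost without LSK Control replicate 2, at -0.33 with an adjusted p of 0.063. Creld2 went from 7.41, 7.35 and 7.20 to 6.90, 6.96 and 6.92 and fell by 0.39 (SE 0.09, adjusted p = 0.00339), and Hspa5 went from 7.60, 7.62 and 7.56 to 7.32, 7.21 and 7.19 and fell by 0.36 (SE 0.08, adjusted p = 0.0059). Each of these genes had all Dox arrays below all controls, again by the choice of genes shown. Manf, a secreted factor held in the ER until stress, fell by 0.29 (SE 0.10, adjusted p = 0.0456). Of the 4 degradation factors 2 rose and 2 were not called, Sel1l at 0.03 (SE 0.11, adjusted p = 0.898) and Syvn1, with its Dox arrays below its controls, at -0.28 (SE 0.10, adjusted p = 0.0561). Herpud1 went from 8.05, 8.01 and 8.06 to 8.39, 8.34 and 8.34 and rose by 0.32 (SE 0.08, adjusted p = 0.0115), and Edem1 from 7.38, 7.49 and 7.32 to 7.57, 7.70 and 7.70, where it rose by 0.26 (SE 0.09, adjusted p = 0.0454). The calls of Manf and Edem1 were each lost in 8 of 17 fits that left out 1 array. Of the 8 genes with the ER stress response element 3 fell and 0 rose, with a median of -0.25. Among the 11 other tested genes with it 0 fell and 0 rose. The shares of all genes tested were 9.93% and 9.21%.

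The Dox response differed between the cell types in most of the set. The test of the difference itself, the AML change minus the LSK change, called 32 of 42 genes, all 32 of them lower in AML, where 21.5% of all genes tested were lower and 18.6% higher (40.1% called in all). The ATF4 arm had 16 of 22 with a median of -1.30 and the ER arm 14 of 16 with a median of -0.92, beside 0.00 over all genes tested. Without AML Control replicate 3, AML Dox replicate 1 or 3, or LSK Compound replicate 2 or 3, 1 gene was also called higher in AML. Cth showed the largest difference, -3.30 (SE 0.16, adjusted p = 5.36e-11), since it fell in AML and rose in LSK cells. It was dim in LSK Control, at 2.93, 3.15 and 3.18, so a fall of Cth could hardly show in LSK cells. Phgdh followed at -2.92 (SE 0.21, adjusted p = 7.25e-09), Psat1 at -2.49 (SE 0.14, adjusted p = 3.5e-10) and Shmt2 at -2.46 (SE 0.12, adjusted p = 8.72e-11). These 3 fell in both cell types, by more in AML. For Atf4 the difference was -1.73 (SE 0.14, adjusted p = 1.82e-08), for Xbp1 -2.85 (SE 0.12, adjusted p = 8.78e-12) and for Eif2ak3 -0.74 (SE 0.12, adjusted p = 8.66e-05). In the ER arm Sdf2l1 differed by -2.55 (SE 0.12, adjusted p = 3.06e-11), Calr by -2.09 (SE 0.10, adjusted p = 5.69e-11), Pdia6 by -1.87 (SE 0.13, adjusted p = 4.36e-09) and Hyou1 by -1.82 (SE 0.15, adjusted p = 2.9e-08). Nupr1 rose in both cell types, and its rise was smaller in AML by a difference of -1.36 (SE 0.18, adjusted p = 9.84e-06). Ern1 and Atf6 differed by -0.20 (SE 0.15, adjusted p = 0.317) and 0.30 (SE 0.12, adjusted p = 0.0666) and were not called.

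Taken gene by gene, 10 of the 42 fell with Dox in both cell types: Vldlr, Phgdh, Psat1 and Shmt2 of the ATF4 arm and Hspa5, Calr, Hyou1, Sdf2l1, Manf and Creld2 of the ER arm. Nupr1 and Edem1 rose in both. Trib3, Cth, Xbp1 and Herpud1 fell in AML and rose in LSK cells, and 0 genes did the reverse. Of all genes tested 6.69% fell in both, 5.2% rose in both, 1.08% fell in AML and rose in LSK cells and 1.14% did the reverse.

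**Figure D4:**
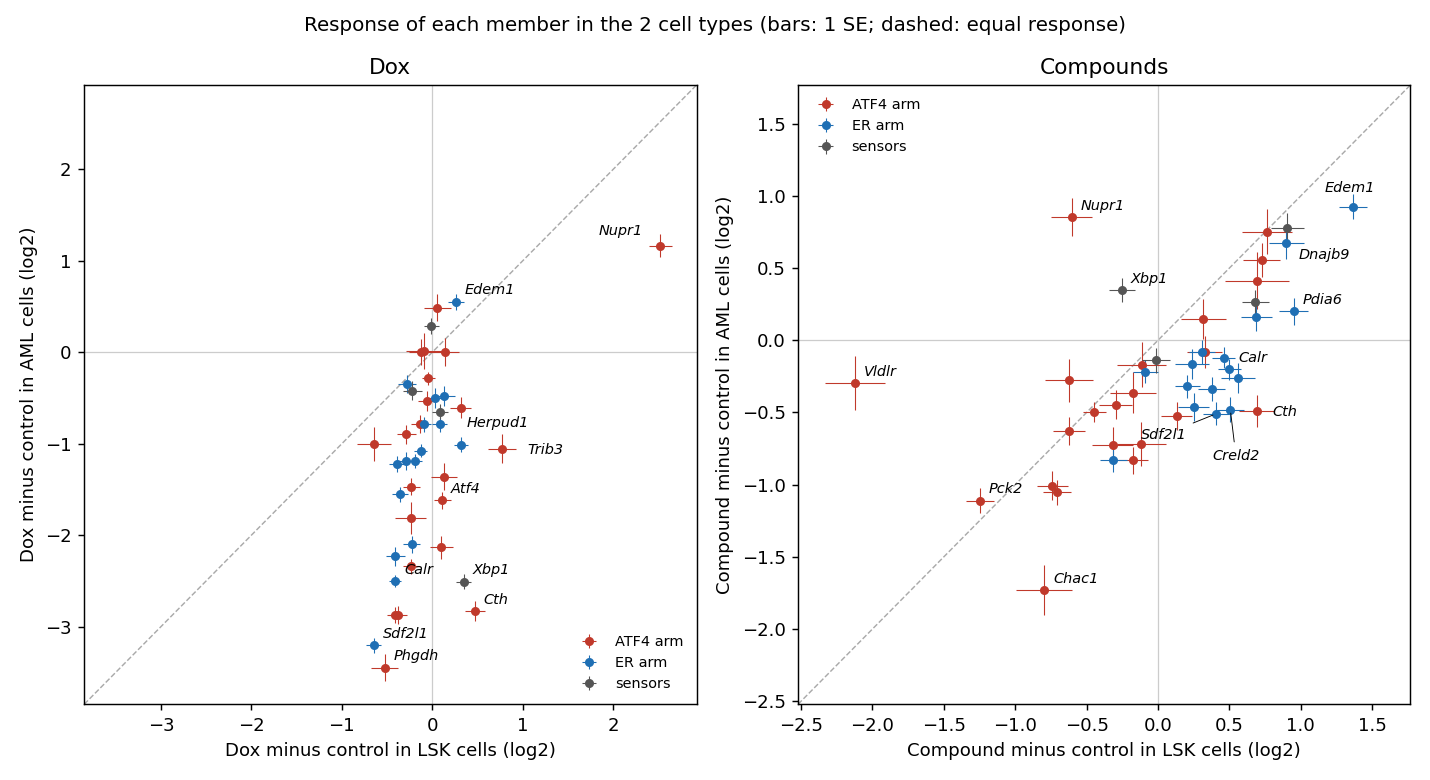
Response of each of the 42 genes in LSK cells (x axis, log2 treated minus control) and in AML cells (y axis, same unit) for Dox (left) and the compounds (right), with bars of 1 standard error, ATF4 arm in red, sensors in grey and ER arm in blue. The dashed line marks an equal response: with Dox 32 genes lie below it by the test of the difference, and with the compounds 18 lie below and 3 above.

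In LSK cells the compound mix was followed by higher RNA of most of the ER arm and by lower RNA of part of the ATF4 arm. In LSK Compound against LSK Control 18 of the 42 genes rose and 11 fell, where 14.2% of all genes tested rose and 20% fell (34.2% called in all). The ATF4 arm had 9 lower and 5 higher of 22 with a median of -0.24, and the ER arm 11 higher and 1 lower of 16 with a median of 0.43, beside a median of -0.05 over all genes tested. With the array that stands apart put back, 11 genes were called, 4 higher and 7 lower, and 12 of the genes that are higher here, Hspa5, Calr and Edem1 among them, turned to negative differences that were not called. With 2 arrays against 3, groups did not overlap in 23 of the 42 genes upwards and 16 downwards, where 3535 and 5172 of 16337 genes tested showed this. These arrays are compared with the same 3 control arrays as LSK Dox. The group rests on 2 arrays whose Y-linked transcripts differ from the controls, as given above. Macrophage markers had a log2 summed level of 9.23 to 9.33 in LSK Control and 10.28 to 10.36 in LSK Compound, with 4 of 9 higher and 2 lower, and plasma cell markers one of 5.73 to 5.93 and 6.38 to 6.79, with 2 of 6 tested higher and Tnfrsf17 at the filter level in both groups. Granulocyte markers went the other way, with a summed level of 9.70 to 9.86 in LSK Control and 8.75 to 8.77 in LSK Compound, 5 of 7 tested lower, 1 higher and a median of -2.40. Of these Ly6g and Retnlg were at the filter level in both groups and Camp in LSK Compound. Their part was not tested.

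Among the sensors Atf6 read 6.87, 6.91 and 6.90 in LSK Control and 7.53 and 7.62 in LSK Compound and rose by 0.68 (SE 0.10, adjusted p = 2.56e-05). Ern1 read 8.08 and 8.05 with the compounds and rose by 0.91 (SE 0.12, adjusted p = 8.33e-06). Xbp1 read 8.38 and 8.48 and fell by 0.25 (SE 0.09, adjusted p = 0.0397), a call lost in 5 of 17 fits that each left out 1 array. Atf6 and Ern1 thus rose while Xbp1 RNA did not. Eif2ak3 read 4.52, 4.51 and 4.45 in LSK Control and 4.51 and 4.44 with the compounds, overlapping groups, a difference of -0.01 (SE 0.10, adjusted p = 0.939), and Atf4 read 8.38 and 8.45, a difference of 0.13 (SE 0.11, adjusted p = 0.404) that was not called.

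The ER arm rose across its roles: 7 of 9 chaperones, 3 of 3 folding factors and 1 of 4 degradation factors. Edem1 read 7.38, 7.49 and 7.32 in LSK Control and 8.68 and 8.85 in LSK Compound and rose by 1.37 (SE 0.10, adjusted p = 6.12e-09), the largest change in the arm. Pdia6 read 8.95, 9.09 and 8.96 and then 9.95 and 9.95 and rose by 0.95 (SE 0.10, adjusted p = 1.2e-06). Dnajb9 read 6.61, 6.86 and 6.79 and then 7.57 and 7.73 and rose by 0.90 (SE 0.12, adjusted p = 1.79e-05). Both compound arrays lay above all 3 controls in each, as the choice of genes shown required. Manf read 4.59, 4.65 and 4.47 and then 5.13 and 5.38 and rose by 0.69 (SE 0.11, adjusted p = 7.66e-05), and Hyou1 read 8.54 and 8.39 with the compounds and rose by 0.56 (SE 0.12, adjusted p = 0.00117). Creld2 rose by 0.51, Calr by 0.50, Hsp90b1 by 0.46, Sdf2l1 by 0.41, Hspa5 by 0.38 and Pdia3, a glycoprotein disulfide isomerase, by 0.31. The Hspa5 call was lost without LSK Compound replicate 3, at 0.31 with an adjusted p of 0.0653, and the Pdia3 call without LSK Compound replicate 2, at 0.25 with an adjusted p of 0.124. Herpud1 was the single gene of the arm to fall, from 8.05, 8.01 and 8.06 to 7.70 and 7.75, by 0.31 (SE 0.09, adjusted p = 0.0138), and it lost the call without LSK Compound replicate 2, at -0.28. Of the 8 genes with the ER stress response element 5 rose and 0 fell, with a median of 0.42. Among the 11 other tested genes with it 1 rose and 1 fell, with a median of 0.03. The shares of all genes tested were 14.2% and 20%.

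The falls lay mostly in the ATF4 arm. Vldlr read 5.0, 4.84 and 5.21 in LSK Control and 2.84 and 2.95 in LSK Compound, 4.35-fold lower, and fell by 2.12 (SE 0.21, adjusted p = 3.81e-07). Pck2 read 6.82, 6.99 and 7.01 and then 5.64 and 5.75 and fell by 1.25 (SE 0.10, adjusted p = 1.46e-08). Chac1 read 3.81, 4.14 and 4.57 and then 3.50 and 3.25 and fell by 0.80 (SE 0.19, adjusted p = 0.0035). The Chac1 controls were uneven, and it lost the call without LSK Compound replicate 3, at -0.67 with an adjusted p of 0.0569. Psat1 read 5.99 and 6.03 with the compounds and fell by 0.74 (SE 0.11, adjusted p = 4.6e-05), and Shmt2 read 7.85 and 8.04 and fell by 0.71 (SE 0.10, adjusted p = 1.63e-05). Cebpg, Psph, Nupr1 and Asns fell by 0.62, 0.62, 0.60 and 0.45. Cebpg was at -0.24 without LSK Compound replicate 2, with an adjusted p of 0.254, and Nupr1 at -0.44 without replicate 3, with an adjusted p of 0.0805.

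In the same arm 5 genes rose. Ddit3 read 3.87, 3.63 and 3.60 in LSK Control and 4.25 and 4.67 in LSK Compound and rose by 0.76 (SE 0.17, adjusted p = 0.00219). Ppp1r15a read 3.54, 3.55 and 3.67 and then 4.13 and 4.49 and rose by 0.73 (SE 0.13, adjusted p = 0.000266). Ddit4 read 4.28, 4.04 and 4.10 and then 5.01 and 4.66 and rose by 0.69 (SE 0.22, adjusted p = 0.0222). The compound arrays were above the controls in all 3, but Ddit3 lost its call without LSK Compound replicate 3, at 0.55 with an adjusted p of 0.0647, and Ddit4 without LSK Compound replicate 2, LSK Control replicate 2 or LSK Control replicate 3, at 0.52 to 0.67. Cth read 3.75 and 3.80 with the compounds and rose by 0.69 (SE 0.12, adjusted p = 0.000273). Atf5, a relative of ATF4, went from 4.22, 4.58 and 4.48 to 4.76 and 4.75 and rose by 0.33 (SE 0.12, adjusted p = 0.0473), a call lost in 11 of 17 fits that each left out 1 array.

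The compound response, too, differed between the cell types, in 21 of the 42 genes. The difference, AML change minus LSK change, was lower in AML in 18 of 42 genes and higher in 3, where 8.37% and 8.69% of all genes tested were so (17.1% called in all). The ER arm had 13 of 16 lower with a median of -0.55, and the ATF4 arm 4 lower and 2 higher of 22 with a median of -0.18, beside 0.02 over all genes tested. With the array that stands apart put back, 2 genes were called. Creld2, at -0.99 (SE 0.13, adjusted p = 2.57e-05), Sdf2l1, at -0.92 (SE 0.12, adjusted p = 3.15e-05), and Hspa5, at -0.72 (SE 0.13, adjusted p = 0.000518), fell in AML and rose in LSK cells. Hyou1 differed by -0.82 (SE 0.16, adjusted p = 0.00123) and Pdia6 by -0.75 (SE 0.14, adjusted p = 0.000832), both of them rising in LSK cells and not called in AML. In the ATF4 arm Cth differed by -1.18 (SE 0.17, adjusted p = 6.01e-05), Chac1 by -0.93 (SE 0.26, adjusted p = 0.0182), Atf4 by -0.66 (SE 0.14, adjusted p = 0.00359) and Mthfd2 by -0.66 (SE 0.14, adjusted p = 0.00333). The Chac1 difference lost its call without LSK Compound replicate 2, at -0.81 with an adjusted p of 0.0918. The 3 higher differences were those of Vldlr, 1.82 (SE 0.28, adjusted p = 0.000153), Nupr1, 1.46 (SE 0.19, adjusted p = 3.04e-05), and Xbp1, 0.60 (SE 0.12, adjusted p = 0.00192). Nupr1 and Xbp1 rose in AML and fell in LSK cells.

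Gene by gene, 7 of the 42 fell with the compounds in both cell types, 6 of them of the ATF4 arm (Chac1, Psat1, Psph, Shmt2, Asns and Pck2) and Herpud1. Another 6 rose in both: Ddit3, Ppp1r15a, Atf6, Ern1, Dnajb9 and Edem1. Cth, Hspa5, Calr, Sdf2l1 and Creld2 fell in AML and rose in LSK cells, and Nupr1 and Xbp1 did the reverse. Of all genes tested 11.9% fell in both, 6.81% rose in both, 0.643% fell in AML and rose in LSK cells and 0.869% did the reverse.

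Dox and the compounds were also compared directly in LSK cells. There 19 of the 42 genes were lower and 13 higher with Dox, where 14.3% of all genes tested were lower and 18% higher (32.3% called in all). The ER arm had 12 lower and 1 higher of 16 with a median of -0.75, and the ATF4 arm 5 lower and 11 higher of 22 with a median of 0.30. Nupr1 was 8.74-fold higher with Dox, 3.13 (SE 0.14, adjusted p = 1.79e-11), and Vldlr was higher by 1.48 (SE 0.21, adjusted p = 2.43e-05). Pdia6, at -1.18 (SE 0.10, adjusted p = 7.8e-08), Ern1, at -1.12 (SE 0.12, adjusted p = 6.24e-07), and Edem1, at -1.11 (SE 0.10, adjusted p = 8.6e-08), gave the largest differences in the other direction. Without LSK Compound replicate 2, 8 genes were higher and 15 lower, and the higher calls lost were those of Cebpg, Chac1, Psat1, Sesn2 and Shmt2. With the array that stands apart put back, 9 genes were called, and Pdia6 and Edem1 had positive differences that were not called.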

How the data were processed

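RNA of 18 samples was measured on whole-transcript arrays, biotin-labelled by a GeneChip kit per the labels' protocols. The deposited values are log2 expression of 41345 probe sets, which the authors computed with RMA, a method that corrects background, normalizes between arrays and summarises probes, per the submitters' processing notes. The sources used here give neither its version nor a genome build. RMA scales the arrays to one another, so values are relative to the rest of each array's RNA. Groups came from the sample titles. Probe sets with 1 gene symbol (23521) were named through the platform table. Each of 22180 genes was represented by its brightest probe set, averaged over 17 arrays, and the 16337 genes above the 40th percentile of their array on at least 3 arrays were tested. LSK Compound replicate 1 was left out.

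Group means were fitted with limma 3.58.1 in R 4.3.3 (lmFit, contrasts, eBayes, 11 residual degrees of freedom) and p-values were adjusted by Benjamini-Hochberg over all genes tested in each of 9 comparisons. The procedure was tested on simulated data. The labels do not say whether the repeats came from separate mice, so the spread behind the p-values may be technical. Values per array are given for up to 5 genes that rose and 5 that fell in each arm among those called without overlap, and for Atf4 and the sensors; genes outside this rule are named by their fitted values. From each other list of the pathway up to 3 genes with the smallest p are named. The genes and lists were chosen with earlier results of these data known. Marker lists were summed per array to check the labels, and their genes were tested in the same fit and are given beside the responses they move with: stem and progenitor, MLL-AF9 leukaemia, granulocyte, macrophage, erythroid, B cell, plasma cell, T and NK cell, and stromal and endothelial. Promoters were searched on both strands, with 42 RefSeq entries for 39 names.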

Additional observations from a re-analysis of the deposited data

Results flagged for a closer look

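Each of the following genes had a response that differed between AML and LSK cells by the limma test of the difference itself, AML change minus LSK change. Under Dox this held for Atf4 at -1.73 (SE 0.14, adjusted p = 1.82e-08), Phgdh at -2.92 (SE 0.21, adjusted p = 7.25e-09), Cth at -3.30 (SE 0.16, adjusted p = 5.36e-11) and Sdf2l1 at -2.55 (SE 0.12, adjusted p = 3.06e-11). It also held for Xbp1 at -2.85 (SE 0.12, adjusted p = 8.78e-12) and for the sensor Eif2ak3 at -0.74 (SE 0.12, adjusted p = 8.66e-05). Under the compounds the difference was below 0 for Atf4 at -0.66 (SE 0.14, adjusted p = 0.00359), Chac1 at -0.93 (SE 0.26, adjusted p = 0.0182), Cth at -1.18 (SE 0.17, adjusted p = 6.01e-05), Sdf2l1 at -0.92 (SE 0.12, adjusted p = 3.15e-05), Creld2 at -0.99 (SE 0.13, adjusted p = 2.57e-05) and Atf6 at -0.42 (SE 0.13, adjusted p = 0.034). It was above 0 for Nupr1 at 1.46 (SE 0.19, adjusted p = 3.04e-05), Vldlr at 1.82 (SE 0.28, adjusted p = 0.000153) and Xbp1 at 0.60 (SE 0.12, adjusted p = 0.00192). The compound differences rest on the 2 LSK Compound arrays. The Atf6 call was lost in 10 of 17 fits that each left out 1 array.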

How the results depend on the processing

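Putting back LSK Compound replicate 1 moved the counts of genes called by over 1.5 times. With all 18 arrays the genes called of 42 were 21 (AML Dox), 6 (AML Compound), 1 (LSK Dox), 11 (LSK Compound), 15 (Dox difference), 2 (compound difference), 7 (AML against LSK Control), 18 (Dox against compounds in AML) and 9 (the same in LSK), against 39, 28, 16, 29, 32, 21, 31, 34 and 32 without it. Over all genes tested the counts were 4240, 1064, 602, 2925, 2227, 520, 1433, 3888 and 2547, against 7935, 5232, 3127, 5590, 6547, 2786, 4828, 7791 and 5283. The cause was not tested.

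With that array 34 single values changed sign, and none of them was called. In LSK Compound they were Atf6 -0.87, Ern1 -0.092, Hspa5 -0.59, Hsp90b1 -1.68, Calr -1.78, Hyou1 -0.48, Sdf2l1 -0.43, Dnajb9 -1.15, Pdia3 -0.90, Pdia6 -0.23, Creld2 -0.42 and Edem1 -0.21. In the compound difference they were Atf4 0.75, Mthfd2 0.22, Atf6 1.13, Hspa5 0.25, Hsp90b1 1.56, Calr 1.58, Hyou1 0.22, Dnajc3 0.71, Pdia3 0.82, Pdia6 0.43, Herpud1 0.35 and Edem1 1.14. In LSK Dox against LSK Compound they were Atf6 0.86, Hspa5 0.24, Hsp90b1 1.55, Calr 1.37, Hyou1 0.068, Dnajb9 1.28, Dnajc3 0.94, Pdia6 0.0046, Creld2 0.030 and Edem1 0.48. With limma's array quality weights, which gave that array a weight of 0.00627, the counts were 39, 29, 18, 36, 33, 25, 32, 35 and 37. Over all genes they were 8424, 5816, 3601, 8685, 7052, 4784, 5522, 8191 and 8641, over 1.5 times higher in the 3 comparisons with LSK Compound.

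Leaving out each of the 17 arrays in turn gave 37 to 39 genes called in AML Dox, 25 to 28 in AML Compound, 12 to 18 in LSK Dox, 23 to 29 in LSK Compound, 31 to 33 in the Dox difference, 18 to 21 in the compound difference, 30 to 33 between controls, 33 to 35 between the treatments in AML and 23 to 33 in LSK. Where LSK Compound was left with 1 array, that array was assumed to vary like the other groups. Samples that share a replicate number did not deviate together: 40 pairs had correlations of -0.114 to 0.104, 1 of them over 0.1. With the replicate number as a block the counts were 39, 27, 14, 27, 32, 18, 31, 34 and 30. The other settings (scaling, filters, probe set choice, moderation, fitting the compared groups alone) kept every count of called genes within 1.5 times. The number of arrays, 3 a group and 2 in LSK Compound, limits the precision: the median standard error was 0.124 for a comparison of groups of 3 and 0.139 for one with LSK Compound.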

Other observations

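Neighbouring genes of the same pathways, from lists chosen with earlier results of these data known, gave values beside those of the 42 genes. Of all genes tested 25.6% fell and 23% rose in AML Dox, and 19.2% and 12.8% in AML Compound. In LSK Dox 9.93% fell and 9.21% rose, and in LSK Compound 20% and 14.2%. Of 18 cytosolic aminoacyl-tRNA synthetases, enzymes that charge tRNA and are ATF4 targets in part, 17 fell and 1 rose in AML Dox with a median of -1.51. Vars, the valine enzyme, fell by 2.94 (SE 0.11, adjusted p = 6.19e-13) and Eprs, which charges glutamate and proline, by 2.28 (SE 0.10, adjusted p = 3.55e-12), while Wars, the tryptophan enzyme, rose by 2.33 (SE 0.08, adjusted p = 3.35e-13). In AML Compound 12 fell and 1 rose, in LSK Dox 5 fell and 0 rose, and in LSK Compound 8 fell and 1 rose. Of 24 other tested ATF4 targets 17 fell and 5 rose in AML Dox. There Rgs2, a regulator of G protein signalling, rose by 3.30 (SE 0.10, adjusted p = 4.91e-14), Vegfa, the vascular growth factor, fell by 2.99 (SE 0.10, adjusted p = 9.49e-14) and the amino acid transporter gene Slc7a5 fell by 2.54 (SE 0.09, adjusted p = 2.13e-13). In AML Compound 8 fell and 7 rose, and Vegfa rose by 1.85 (SE 0.10, adjusted p = 2.7e-10). Slc7a11, the cystine transporter, rose there by 2.45 (SE 0.14, adjusted p = 6.66e-10) and in LSK Compound by 3.74 (SE 0.16, adjusted p = 5.5e-12). In LSK Compound 10 fell and 7 rose, Rgs2 fell by 2.27 (SE 0.11, adjusted p = 5.05e-11) and Atf3, a stress factor downstream of ATF4, rose by 2.95 (SE 0.18, adjusted p = 9.13e-10).

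Of 35 other ER folding and quality control genes 22 fell and 3 rose in AML Dox, 2 fell and 12 rose in AML Compound, 5 fell and 2 rose in LSK Dox, and 0 fell and 23 rose in LSK Compound with a median of 0.41. Dnajc10, an ER reductase, rose in LSK Compound by 0.97 (SE 0.09, adjusted p = 8.92e-08). Selenos, a selenoprotein of ER-associated degradation, rose in LSK Compound by 1.34 (SE 0.13, adjusted p = 2.13e-07) and Edem2, a relative of Edem1, by 1.19 (SE 0.11, adjusted p = 1.17e-07). Rpn1, a subunit of the oligosaccharyltransferase, fell in AML Dox by 2.04 (SE 0.10, adjusted p = 8.21e-12). The 23 genes of the translocon and signal peptidase had 14 lower and 3 higher in AML Dox and 1 lower and 9 higher in LSK Compound. Of 22 genes of eIF2 control and stress signalling 10 fell and 6 rose in AML Dox. Cebpb, a transcription factor and partner of ATF4, fell by 1.94 (SE 0.10, adjusted p = 4.12e-11). In the same list Eif2b3, a subunit of the exchange factor that recharges eIF2, fell by 1.66 (SE 0.09, adjusted p = 4.53e-11). The LSK Dox counts of the 35 ER genes lie near the shares of all genes tested given above. So do the 6 rises among the 22 genes of eIF2 control and stress signalling in AML Dox.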
